A study of Mus musculus with 2 samples.

Results

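Endothelial cells line the blood vessels of the liver, and 10 genes that mark them were followed in regenerating liver with reduced miR-182-5p. The genes were taken by name. They were 5 receptors of the liver sinusoid, *Stab1*, *Stab2*, *Lyve1*, *Clec4g* and *Fcgr2b*, and 5 genes that endothelial cells use in most vessels, *Kdr*, *Flt1*, *Tek*, *Pecam1* and *Cdh5*. All 10 were found among the 34745 genes of the table, and all 10 passed the minimum of 10 counts over both libraries, as did 13561 genes in all. One library came from male miRNA-182 KO mice and the other from male WT mice, each 8 to 10 weeks old and each subjected to partial hepatectomy (2/3 PH), in which 70% of the liver was removed. The KO mice lack miR-182-5p on a single allele, so some of the miRNA remains. The labels do not give the time of sampling, and day 3 after PH was taken from the text of the study. The sources used here do not state how many mice went into a library or the strain of the WT mice.

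Liver sinusoidal endothelial cells have pores, lack a complete basement membrane and clear waste from the blood through scavenger and lectin receptors. Endothelial cells elsewhere share with them the junction proteins and the receptors for vascular endothelial growth factor (VEGF) and angiopoietins. After PH, endothelial cells are known to divide later than hepatocytes, to rebuild the sinusoids and to release factors that act on hepatocytes. The comparison here asks whether the sinusoidal receptors and the general endothelial genes differed between the KO and WT livers, and whether the sets moved alike.

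With 1 library per genotype, no difference below has a replicate check. What is compared is a pair of libraries rather than genotypes, and all 95% intervals cover counting error only. The libraries were nearly equal in depth, with 13247497 counts in KO and 13163348 in WT. However, transcripts of the 13 mitochondrially encoded proteins made up 51.7% of all counts in KO, against 31.0% in WT. Counts were therefore scaled by TMM, a method of edgeR that limits the weight of the most abundant genes, and log2 fold changes are KO over WT. A gene was called higher or lower at a fold of at least 2. By that rule 9.94% of all genes tested were lower and 9.46% higher in KO. Scaled by total counts instead, 3605 genes were lower and 624 higher, and the median of all genes tested was −0.60 on the log2 scale, against 0.00 with TMM. *Mir182* itself was not among the genes of the table, which leaves the KO label of this library without a check on its target. The study reported a reduced level of the miRNA in the liver of KO mice by quantitative PCR. The liver label was checked on 8 hepatocyte genes, which had between 1517 and 536544 counts per library. *Alb*, which encodes albumin, had 339876 KO and 536544 WT counts and a log2 fold change of −0.07. *Apob*, the apolipoprotein of very low density lipoprotein, was the only one of the 8 past the fold, at −2.96.

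The perturbed miRNA is shown with the closest match to it among the 10 genes, as a feature of sequence only. The study saw little of this miRNA in liver cells other than hepatocytes after PH. It describes the miRNA as acting in hepatocytes, by raising the promoter activity of a gene of bile acid synthesis. An action of the miRNA within endothelial cells was not tested here. The mature miRNA is encoded on the minus strand at chr6:30165962-30165986 (GRCm38, RefSeq). Its capitals mark the seed, bases 2 to 8. In the *Flt1* site, the capitals mark the 7 bases that match the seed from base 2 to base 7 followed by an A.
miR-182-5p: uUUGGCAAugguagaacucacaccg
*Flt1*: atgctggtttcTGCCAAAgacggacatga
The full match of 8 bases, TTGCCAAA, was in the longest 3′ untranslated region (UTR) of 0 of the 10 genes, against 4.98% of the 12503 tested genes with an annotated 3′ UTR. A match of 7 bases, TTGCCAA or TGCCAAA, with those inside the full match counted too, was found in 1 of the 10, against 19.5% of tested genes. The match in *Flt1* lies on the minus strand at chr5:147638750-147638756, at base 374 of the 3′ UTR of a shorter coding transcript. This transcript ends at 147635159, inside the gene, and the site is in no exon of the other annotated coding transcript of *Flt1*. The counts are per gene and do not separate these transcripts. The median 3′ UTR length was 1246 bases for the 10 genes and 1130 bases for the tested genes, and a match of letters alone is not evidence of a site in use.

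Of the 10 endothelial genes, 2 were lower in KO by at least 2-fold, *Lyve1* and *Tek*, and 0 were higher, beside the 9.94% and 9.46% of all genes given above. Their median log2 fold change was −0.25, with 8 below 0 and 2 above, while over all genes tested 6778 were below 0 and 6783 above. The summed level of the 10 genes was 154 CPM (counts scaled to the TMM-adjusted library size) in KO and 158 in WT. Of these sums *Stab1* alone made up 62.1 and 45.3, so their closeness rests on this gene. In bulk liver, a difference in the number of endothelial cells and a difference in RNA per cell cannot be told apart.

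**Figure D1:**
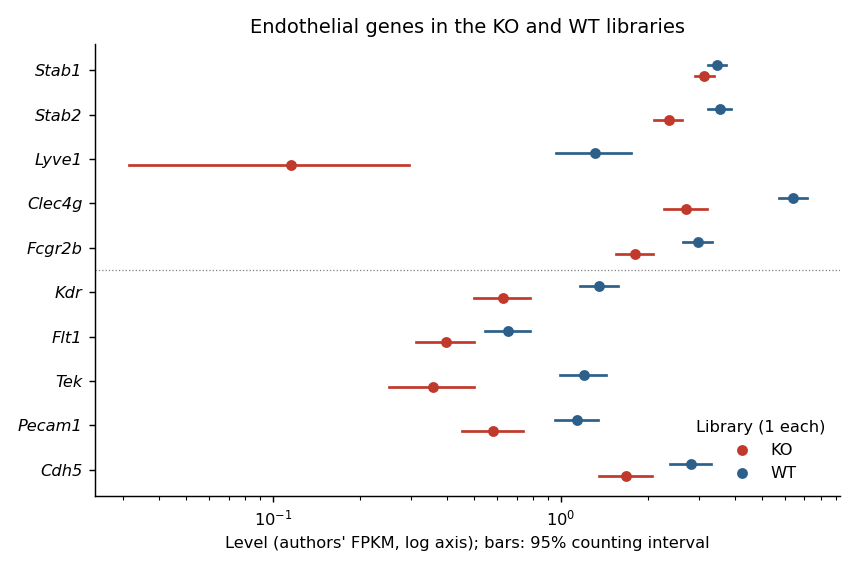
Level of each gene in the KO (red) and WT (blue) library, as the authors' FPKM on a log axis, with 95% counting intervals. The FPKM of all 10 genes are lower in KO, and *Lyve1* has the widest gap, at 0.116 in KO and 1.31 in WT. These FPKM follow total counts, by which the median of all genes tested was −0.60 on the log2 scale. With TMM, 8 of the 10 genes were below 0 and 2 above.

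The stabilins are large scavenger receptors that take up hyaluronan, modified lipoproteins and other waste from sinusoidal blood. *Stab1* (ENSMUSG00000042286, chr14:31139013-31168641, minus strand) had 668 counts in KO and 734 in WT. Its log2 fold change was 0.46 (95% counting interval 0.30 to 0.61), the highest of the 10 genes, and it was −0.14 when scaled by total counts. *Stab2* (ENSMUSG00000035459, chr10:86841198-87008025, minus strand) had 318 counts in KO and 476 in WT. It stood at 0.01 (−0.20 to 0.22) with TMM and at −0.59 with total counts. Neither stabilin was past a 2-fold change under TMM or total counts. The ratio of *Stab1* to *Stab2* counts, which no scaling of the libraries can move, was 2.10 in KO and 1.54 in WT, 1.36 times as high in KO (1.14 to 1.63). *Stab1* overlaps *Nt5dc2* on the other strand, with 66 counts in KO and 129 in WT, and shares 0.780% of its 51-base words with it.

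*Lyve1* encodes a hyaluronan receptor of sinusoidal and lymphatic endothelium (ENSMUSG00000030787, chr7:110850607-110862953, minus strand). It had 4 counts in KO and 45 in WT. The log2 fold change was −2.78 (−4.84 to −1.44), and 2.01% of all genes tested stood lower. Relative to *Stab2* in the same library, *Lyve1* counts were 7.52 times as high in WT as in KO (2.7 to 29.0). The fold therefore exceeded 2 over the whole counting interval, although its size rests on 4 counts. *Lyve1* overlaps no annotated gene and shares no 51-base word with one.

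*Clec4g* encodes LSECtin, a C-type lectin of sinusoidal endothelium (ENSMUSG00000074491, chr8:3707064-3720651, minus strand). It had 138 counts in KO and 323 in WT. The log2 fold change was −0.63 (−0.93 to −0.34), short of 2-fold with TMM, and −1.23 with total counts. *Fcgr2b* encodes the inhibitory Fc receptor through which sinusoidal cells clear small immune complexes, and B cells and Kupffer cells also express it (ENSMUSG00000026656, chr1:170958617-170976547, minus strand). It had 180 counts in KO and 295 in WT, and its log2 fold change was −0.12 (−0.40 to 0.15). *Fcgr2b* shares 8.57% of its 51-base words with other genes, most with *Fcgr3* (28 KO and 94 WT counts), so part of its reads could be assigned either way.

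Of the VEGF receptors, *Kdr* (VEGFR2, ENSMUSG00000062960, chr5:75932827-75978458, minus strand) carries the main growth signal. It had 80 counts in KO and 172 in WT, a log2 fold change of −0.51 (−0.91 to −0.12). *Flt1* (VEGFR1, ENSMUSG00000029648, chr5:147561604-147726011, minus strand) binds VEGF tightly and also exists as a soluble decoy. It had 76 counts in KO and 124 in WT, a log2 fold change of −0.11 (−0.55 to 0.31). The ratio of *Kdr* to *Flt1* was 1.05 in KO and 1.39 in WT, and the interval of the change in this ratio, 0.505 to 1.14 KO over WT, included 1. A difference between these receptors was thus not detectable at this depth.

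*Tek* encodes TIE2, the angiopoietin receptor that keeps vessels quiescent (ENSMUSG00000006386, chr4:94739289-94874976, plus strand). It had 36 counts in KO and 119 in WT. The log2 fold change was −1.12 (−1.71 to −0.58), a 2.18-fold lower level in KO whose interval ran from 1.5 to 3.28-fold, so that counting error alone spans both sides of 2-fold. Relative to *Cdh5*, it was 1.99 times as high in WT as in KO (1.23 to 3.24).

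The adhesion molecules of the endothelial junction were closer to 0. *Pecam1* (CD31, ENSMUSG00000020717, chr11:106654217-106750628, minus strand) had 69 counts in KO and 134 in WT and a log2 fold change of −0.36 (−0.81 to 0.06). *Cdh5* (VE-cadherin, ENSMUSG00000031871, chr8:104101625-104144502, plus strand) had 89 and 148 counts and stood at −0.14 (−0.54 to 0.25). Both intervals included 0.

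**Figure D2:**
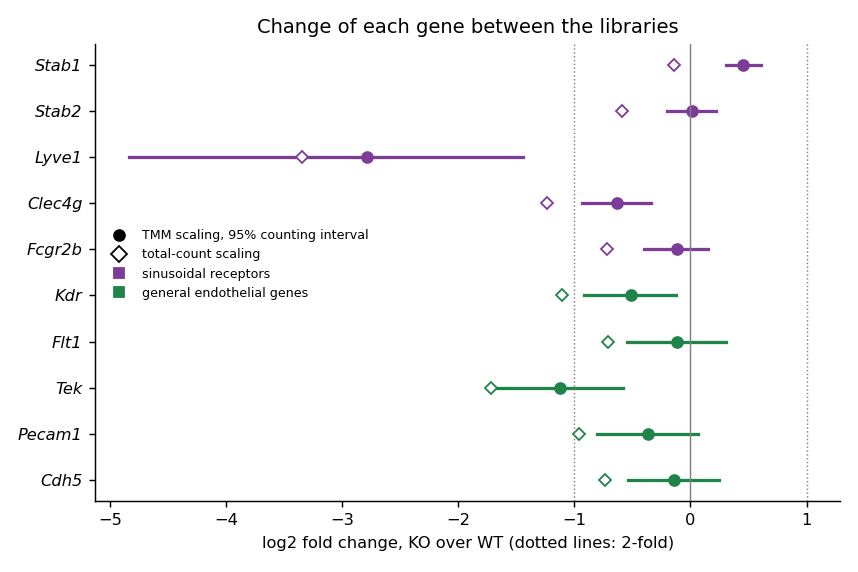
Changes of the 10 genes on the log2 scale (KO over WT) with TMM (filled, 95% counting interval) and with total counts (open diamonds); dotted lines mark 2-fold. With TMM, *Lyve1* and *Tek* are past 2-fold, whereas with total counts all 10 are below 0 and *Clec4g* and *Kdr* also pass it.

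With total counts, all 10 genes stood below 0 and 4 were lower by at least 2-fold, *Lyve1*, *Tek*, *Clec4g* and *Kdr*, when 26.6% of all genes tested were. Their median was then −0.85, which is −0.25 relative to the median of all genes. A change of scaling shifts every gene by nearly the same amount, so this distance could hardly differ from that with TMM.

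**Figure D3:**
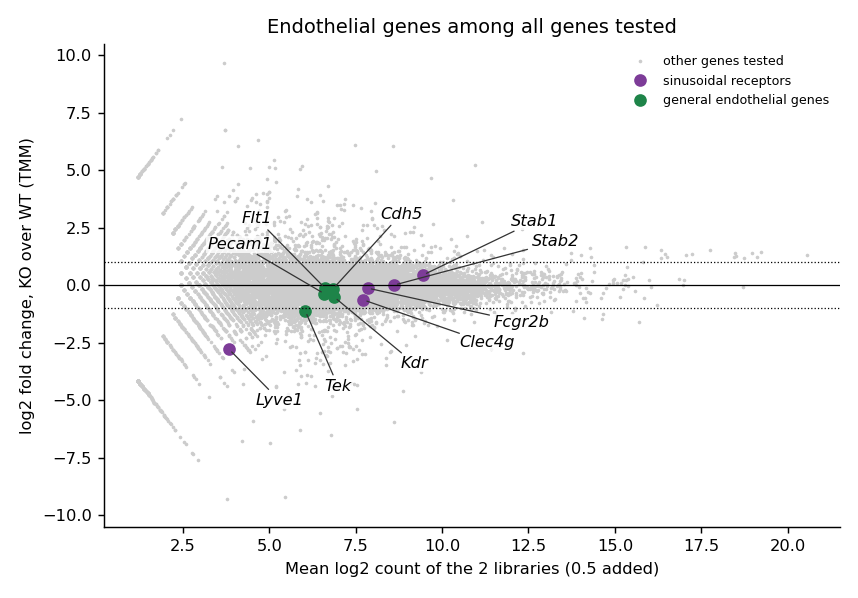
Log2 fold change (TMM) against the mean log2 count of both libraries for all 13561 genes tested (grey), with the sinusoidal receptors (purple) and the general endothelial genes (green) named. *Lyve1* lies in the low-count range where the spread of all genes is wide, and the other 9 genes lie between −1.12 and 0.46.

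Levels can be compared between genes only per length, for which the authors' FPKM were used. In WT, *Clec4g* was highest at 6.38 FPKM, above the next by more than counting error. *Stab2* (3.56), *Stab1* (3.48), *Fcgr2b* (2.98) and *Cdh5* (2.82) followed, with overlapping intervals between neighbours. *Kdr* (1.36), *Lyve1* (1.31), *Tek* (1.20) and *Pecam1* (1.13) formed a lower group whose neighbours also overlapped, and *Flt1* was lowest at 0.654. In KO, *Stab1* came first at 3.14 FPKM and *Clec4g* second at 2.71, with overlapping intervals, followed by *Stab2* (2.36), *Fcgr2b* (1.81) and *Cdh5* (1.69). *Kdr* (0.626), *Pecam1* (0.581), *Flt1* (0.398) and *Tek* (0.360) came next, and *Lyve1* was last at 0.116. The lengths behind the FPKM ran from 0.893 to 1.6 times the exon length of these genes in GENCODE M21. With the M21 lengths, *Clec4g* in WT and *Stab1* in KO were still first, and *Flt1* in WT and *Lyve1* in KO still last. The order between them changed in part. In WT, *Stab1* passed *Stab2*, and *Tek* and *Pecam1* passed *Kdr* and *Lyve1*. In KO, *Pecam1* passed *Kdr* and *Tek* passed *Flt1*.

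The sinusoidal receptors were then set against the general endothelial genes. Their medians were −0.12 and −0.36 on the log2 scale, a difference of 0.24 toward the sinusoidal set in KO. The sinusoidal genes spread more widely, from −2.78 to 0.46, than the general genes, from −1.12 to −0.11, so the sets overlapped. In each set 1 of 5 genes was lower by at least 2-fold and 0 were higher. The difference of the medians rests on the middle gene of each set, and without *Fcgr2b* it was 0.05.

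Summed over the set, the sinusoidal receptors had 1308 counts in KO and 1873 in WT, and the general genes 350 and 697. The ratio of sinusoidal to general counts was 3.74 in KO and 2.69 in WT, 1.39 times as high in KO (1.20 to 1.62), and no scaling of the libraries can move it. This depended on *Stab1*, the gene with the most counts. Without *Stab1* the ratio was 1.12 times as high in KO (0.95 to 1.32), an interval that includes 1. Leaving out any other of the 10 genes gave between 1.29 (*Tek*) and 1.5 (*Clec4g*). With sums of FPKM, which weigh the genes per length, the whole sets gave 1.12 and the sets without *Stab1* 0.964. Relative to the general genes, *Stab1* was 1.81 times as high in KO (1.53 to 2.15) and *Stab2* 1.33 times (1.09 to 1.62), whereas *Lyve1* was 5.65 times as high in WT (2.03 to 21.8). The intervals of *Clec4g* (0.666 to 1.09, KO over WT) and *Fcgr2b* (0.963 to 1.53) included 1. Besides these sets, ratios were computed for 12 pairs of genes, all chosen after the values were seen, and those described are given with the genes concerned.

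**Figure D4:**
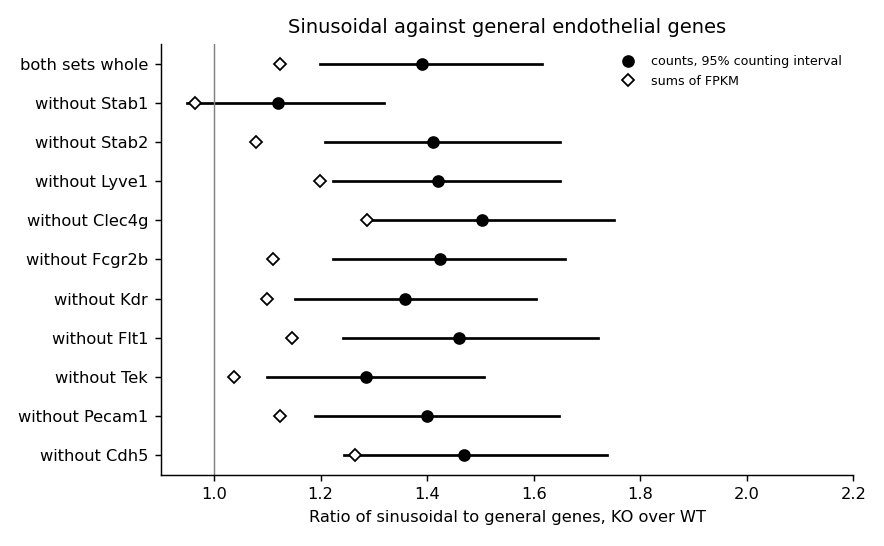
Ratio of sinusoidal to general endothelial genes, KO over WT, for the whole sets and with each gene left out, from counts (filled, 95% counting interval) and from sums of FPKM (open diamonds). From counts, only the value without *Stab1*, 1.12, has an interval that crosses 1.

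Further genes of vessels and of their signals were read from 6 lists with 73 genes. Other liver cells also express some of them, such as *Mrc1*, *Nrp1*, *Id1* and *Hgf*, so the lists are not purely endothelial. Of the 73 genes, 66 passed the count minimum. Of these 66, 4 were lower and 5 higher by at least 2-fold, beside 9.94% and 9.46% of all genes tested, and their median was −0.05, with 33 below 0 and 33 above. With total counts, 19 of the 66 were lower and 1 higher, beside 26.6% of all genes tested that were lower. Their median was then −0.64 and 51 were below 0, when the median of all genes tested was −0.60.

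Of 12 further sinusoidal genes tested, 0 were past 2-fold with TMM. With total counts 6 were lower, when 26.6% of all genes tested were. Their median was −0.36 and their range −0.97 to 0.74 with TMM, and the median was −0.96 with total counts. *Ehd3*, an endocytic recycling protein with the highest FPKM of the list, had 285 KO and 415 WT counts and stood at 0.05 (−0.17 to 0.27). *Mrc1*, the mannose receptor that sinusoidal cells share with macrophages, was named after its values were seen. It had 158 KO and 324 WT counts and stood at −0.44. *Maf* (688 and 619 counts) stood at 0.74 (0.59 to 0.90) and *Gpr182* (112 and 125) at 0.43 (0.05 to 0.81). With total counts these were 0.14 and −0.17, and both genes were likewise named after their values were seen. In this list 8 values were negative and 4 positive, and the summed level was 170 CPM in KO and 156 in WT. Of these sums *Maf* alone made up 64.0 and 38.2, a wider gap than that of the sums, so the higher sum in KO rests on *Maf*.

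The further surface and junction genes had a median of −0.05 over 20 tested genes. Of these, 1 was lower and 1 higher, beside 9.94% and 9.46% of all genes tested. The higher gene was *Icam2*, an adhesion molecule, with 32 KO and 19 WT counts and a log2 fold change of 1.32 (0.48 to 2.24), or 0.73 with total counts. The lower gene was *Thbd*, the anticoagulant receptor thrombomodulin, with 6 and 39 counts and −2.04 (−3.64 to −0.86). *Thbd* had too few counts for the rule for named genes and was named after its values were seen. *Plvap*, which forms the diaphragms of endothelial pores, had the highest FPKM of the list, with 215 KO and 555 WT counts and a log2 fold change of −0.77 (−1.01 to −0.55).

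*Tie1*, the partner receptor of TIE2, was picked for comparison with *Tek* after its values were seen. It had 149 counts in KO and 135 in WT, a log2 fold change of 0.73 (0.39 to 1.08), or 0.13 with total counts. The ratio of *Tie1* to *Tek* was 4.14 in KO and 1.13 in WT, 3.65 times as high in KO (2.31 to 5.83). The ligands of TIE2 were at or near the floor of 3 counts, with 0 counts in both libraries for *Angpt1* and 3 in KO and 4 in WT for *Angpt2*, and were likewise named after their values were seen.

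Among the VEGF and angiopoietin ligands and coreceptors, 6 of 9 genes passed the count minimum and 0 of these were called with TMM, at a median of 0.47. With total counts, 2 were lower, when 26.6% of all genes tested were, and the median was −0.12. *Nrp1*, a coreceptor of VEGF receptors that stellate cells also express, had the highest FPKM, with 1301 counts in KO and 1136 in WT and a log2 fold change of 0.79 (0.67 to 0.90), or 0.19 with total counts. *Vegfa*, the main ligand of *Kdr*, was named after its values were seen. It had 995 KO and 981 WT counts and stood at 0.61 (0.48 to 0.74), or 0.01 with total counts. Relative to *Kdr* in the same library, *Nrp1* was 2.46 times (1.85 to 3.29) and *Vegfa* 2.18 times (1.64 to 2.92) as high in KO. These ratios also carry the lower value of *Kdr*, −0.51 with TMM, and the cells that made each transcript were not told apart.

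The endothelial transcription factors had a median of 0.36 over 11 tested genes, and −0.23 with total counts. *Sox17*, a factor of arterial endothelium and of the bile duct and gallbladder lineage, had 55 KO and 7 WT counts. Its log2 fold change was 3.46 (2.43 to 4.95), the largest increase among the 76 genes tested in the vessel lists, the 10 included. *Tal1*, a factor of blood and endothelial cells, had 37 and 24 counts and stood at 1.20 (0.44 to 2.02), or 0.61 with total counts. *Sox7* was lower, with 7 and 23 counts and −1.08 (−2.59 to 0.14), and was named after its values were seen. *Klf2*, which responds to blood flow, had the highest FPKM of the list, with 75 and 149 counts and −0.40 (−0.82 to 0.01). Beside *Sox17*, 2 of the 5 tested cholangiocyte markers were higher by at least 2-fold, when 9.46% of all genes tested were. *Krt19* (26 KO and 7 WT counts) stood at 2.39 (1.24 to 3.93). *Krt7* (15 and 6) stood at 1.81 (0.47 to 3.57), an interval on both sides of 2-fold. *Spp1*, with the highest FPKM, stood at 0.40, *Sox9* at −0.31 and *Epcam* at 0.14. All but *Spp1* were named after their values were seen. The list summed to 164 CPM in KO and 126 in WT, of which *Spp1* alone made up 152 and 116. Their part in the value of *Sox17* was not tested.

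Of 8 Notch and ephrin genes tested, 1 was called, as higher, beside 9.46% of all genes tested that were higher. *Ephb4*, the ephrin receptor of veins, had 284 KO and 157 WT counts, a log2 fold change of 1.44 (1.16 to 1.74), or 0.84 with total counts. Relative to *Cdh5*, it was 3.01 times as high in KO (2.14 to 4.23). *Notch1*, a receptor named after its values were seen, had 167 and 330 counts and stood at −0.39 (−0.67 to −0.12).

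The angiocrine factors, by which endothelial and neighbouring cells act on hepatocytes, had a median of −0.50 over 9 tested genes. Of these, 2 were lower and 1 higher, beside 9.94% and 9.46% of all genes tested. With total counts, the median was −1.09, with 5 lower and 0 higher, when 26.6% of all genes tested were lower. *Id1*, a regulator that sinusoidal cells induce during regeneration and that other liver cells also express, was lower, with 45 KO and 142 WT counts and −1.06 (−1.58 to −0.57). *Hgf*, hepatocyte growth factor, which stellate cells also make, had 5 and 32 counts and −2.0 (−3.80 to −0.72). In the study, quantitative PCR on replicate livers after PH found no significant change of *Hgf* mRNA in KO mice. The lower value here rests on 5 counts in a single KO library. *Cxcr4* was higher, with 16 and 11 counts and 1.09 (−0.07 to 2.39), or 0.51 with total counts. *Hgf*, *Cxcr4*, the Wnt ligands and *Rspo3* were named after their values were seen. The Wnt ligands of central vein and sinusoidal endothelium were short of 2-fold with TMM, with *Wnt2* (13 and 28 counts) at −0.50 and *Wnt9b* (11 and 31) at −0.88, and past it with total counts, at −1.09 and −1.46. *Rspo3*, which amplifies Wnt signaling, had 25 and 67 counts and stood at −0.82 (−1.56 to −0.15), or −1.41 with total counts. *S1pr1*, the sphingosine-1-phosphate receptor with the highest FPKM of the list, had 159 and 300 counts and stood at −0.32 (−0.61 to −0.04).

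**Figure D5:**
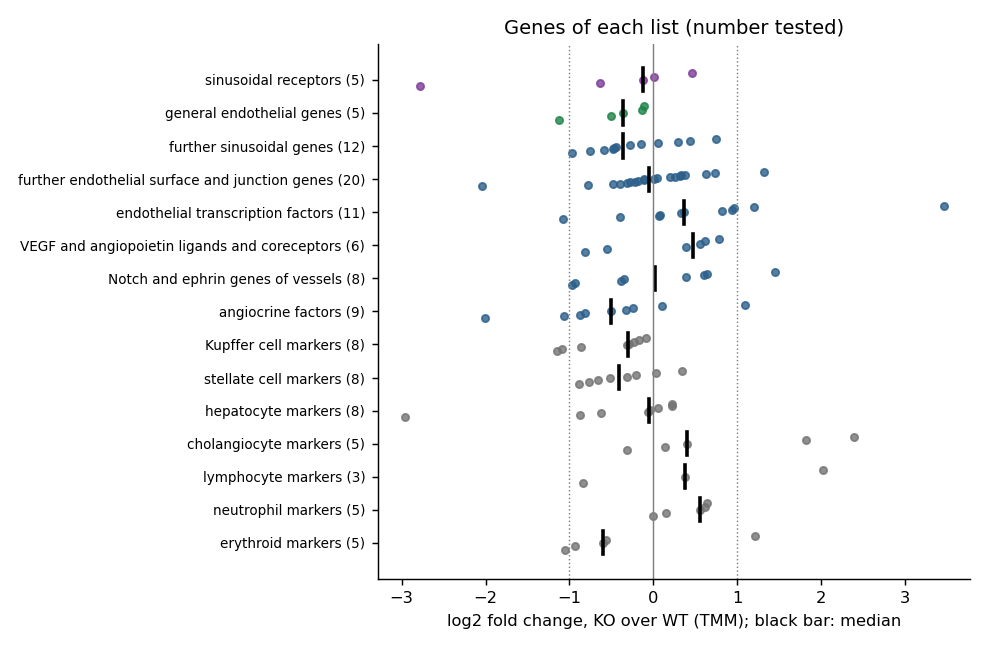
Log2 fold change (TMM) of each tested gene in the endothelial lists (purple, green, blue) and in the marker lists of other liver cells (grey), with the median of each list as a black bar and 2-fold as dotted lines. The endothelial medians run from −0.50 for the angiocrine factors to 0.47 for the VEGF and angiopoietin list, which are −1.09 and −0.12 with total counts.

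Markers of the other liver cells were read beside these values. All 8 Kupffer cell markers were below 0, with a median of −0.30 and a summed level of 135 CPM in KO and 179 in WT. Of the 8, *Marco* (−1.09) and *Adgre1* (−1.15) were lower by at least 2-fold, beside 9.94% of all genes tested. *Clec4f*, with the highest FPKM, stood at −0.29. The 8 stellate cell markers had a median of −0.41, with 6 below 0 and 0 called, and summed to 96.2 CPM in KO and 134 in WT, with *Dcn* highest by FPKM at −0.52. Kupffer cells share *Fcgr2b* and *Mrc1* with the sinusoid. Neutrophil markers had a median of 0.56 over 5 tested genes, and −0.01 with total counts, and summed to 44.8 CPM in KO and 38.1 in WT, with *S100a9* highest by FPKM at 0.15. The erythroid list had a median of −0.59 over 5 tested genes, with *Hbb-bs* lower at −1.05, *Alas2* higher at 1.22 (0.61 with total counts) and *Hba-a1*, with the highest FPKM over both libraries but below *Alas2* in KO, at −0.56. Of the lymphocyte markers, 3 of 8 passed the count minimum and 4 of 8 had 3 counts or fewer in a library. *Cd79a*, a B cell gene with the highest FPKM of the list, had 12 KO and 4 WT counts, and *Ms4a1*, another B cell gene named after its values were seen, had 4 and 5. The part of these cells in the values of the endothelial genes was not tested.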

How the data were processed

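RNA-seq was analysed for liver from 1 KO and 1 WT library, grouped by the genotype in the labels. The authors deposited counts per gene (whole numbers, not normalized) and FPKM computed from them. Per the labels, HISAT2 2.0.4, StringTie and edgeR were named without roles, and the build as hg38, although the identifiers are mouse genes whose coordinates match GRCm38. The counting program and strand setting are not given in the sources used here. Extraction was followed by poly(A) selection.

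A gene was tested if its counts in KO and WT summed to 10 or more. Log2 fold changes were taken in Python 3.11.15 (pandas 2.3.3, numpy 2.4.6, scipy 1.17.1) from counts scaled by TMM (edgeR 4.0.16, R 4.3.3), with a prior count of 0.5. Factors were 0.812 for KO and 1.23 for WT. A gene was called at a fold of at least 2, with no test, since 1 library per genotype gives no spread between mice and no p-value. Intervals are 95% and exact: binomial for fold changes, Poisson for FPKM and conditional for ratios of counts. They cover counting error only, as there is 1 library per genotype. Reads were not counted by molecular identifiers, so repeated copies of a molecule could make the intervals too narrow. The steps were tested on simulated data drawn with counting error only and a known scaling. Spread between mice and the choice of scaling were not covered by that test.

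All 10 genes were named. Of each further list, genes past the fold with at least 50 counts over both libraries (at most 4 in each direction) and the gene with the highest FPKM over both were named, and any other gene of the lists is marked in the text as named after its values were seen. The genes and lists were chosen with earlier results of these data known. *Vegfd* and transferrin, entered in the lists as Tf, were found under the older symbol *Figf* and the mouse symbol *Trf*. Shared words of 51 bases and 3′ UTRs were read from GENCODE M21 transcripts, and the miRNA from RefSeq. Alternatives were a prior count of 5, log2 of FPKM plus 0.1, minimums of 1 and 50 counts, and scaling by total counts with or without the mitochondrial genes, by the upper quartile or by the size factors of DESeq2 1.42.0. Leaving out single genes was chosen after seeing the data. Figures were drawn with matplotlib 3.10.9.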

Additional observations from a re-analysis of the deposited data

How the results depend on the processing

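No paired analysis was possible because KO and WT are single libraries, so no replicate could be left out either. Of 79 values of the 10 genes under the 8 alternatives, 62 stayed within the counting interval and 17 left it, all with total counts or FPKM. With total counts and with FPKM, respectively, 4 and 4 of the 10 genes were lower by at least 2-fold against 2 with TMM, the medians were −0.72 and −0.69 for the sinusoidal receptors and −0.96 and −0.86 for the general genes, and 3605 and 2934 of all genes were lower and 624 and 405 higher, against 1348 and 1283. A minimum of 50 counts removed *Lyve1* and left 1 of the 10 genes lower, with 730 genes lower and 656 higher in all, and a minimum of 1 count gave 2763 and 2269, since 10916 and 16393 genes were tested. The difference of the set medians ran from 0.17, with FPKM, to 0.31, with the minimum of 50 counts, over the 8 alternatives. A change of scaling alone could hardly move it, since every gene shifts by nearly the same amount. The ratio of sinusoidal to general counts, 1.39 times as high in KO, was 1.12 without *Stab1*, 1.42 without *Lyve1* and 1.12 with sums of FPKM. Depth limits *Lyve1*, *Tek* and the genes with under 50 counts most.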
